A study of Mus musculus with 5 samples.

Results

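The 10 genes described here make steroid hormones or feed the enzymes that do: Star, Cyp11a1, Cyp17a1, Hsd3b1, Hsd3b6, Hsd17b1, Hsd17b3, Srd5a1, Fdx1 and Akr1cl. They were taken by symbol from the 27998 genes of the count tables, and each symbol was found. The study sequenced single cells of whole mouse testes at 5 times after spermatogenesis had been synchronized: 0 h, which the labels call the control, 144 h, 350.4 h, 556.8 h and 763.2 h. Its stated subject is how Sertoli cells, the nurse cells inside the seminiferous tubule, mature over time. All 5 samples carry the word synchronized. The labels used here name no age, strain, genotype or synchronizing agent, and do not say how many testes were pooled. The testes were freed of their capsule, digested with collagenase and rinsed after the tubules had settled, which can remove cells that lie between the tubules, and then dissociated with trypsin.

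Androgens are made mainly by Leydig cells, which lie between the tubules. Star carries cholesterol into the mitochondrion, Cyp11a1 cuts its side chain with electrons passed on by Fdx1, and Hsd3b enzymes and Cyp17a1 turn the product into androstenedione. Hsd17b3 reduces androstenedione to testosterone, Hsd17b1 reduces oestrone and, in the mouse, also androstenedione, and Srd5a1 reduces testosterone further. Mice have a fetal and an adult population of Leydig cells. Hsd3b6 is known as an isoform of the adult population, and in the fetal mouse testis Hsd17b3 is found in Sertoli cells and not in Leydig cells. Akr1cl is a member of the aldo-keto reductase family.

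Each time had 1 library, so no difference below has a replicate check or a test. All differences describe these libraries, not the conditions, and all intervals are 95% intervals that cover counting error only. The libraries held between 75578147 and 118147393 unique molecular identifiers (UMIs, each a captured RNA molecule), and pairs of libraries shared 11 to 37 cell barcodes. After filtering, 38104 cells in 63 clusters remained and clusters were named from marker genes that held none of the 10. Leydig-like cells formed 1 cluster. Over the 5 times it held 341, 159, 7, 0 and 8 cells, or 4.44%, 2.50%, 0.151%, 0% and 0.0725% of kept cells. At 556.8 h, 0 of 8404 cells allows a share of up to 0.0357%. Sertoli-like cells numbered 3111, 1271, 527, 48 and 16 at the 5 times. Their number depended on the processing: over the alternatives the lowest and highest numbers were 1514 and 3160 for 0 h, 92 and 1580 for 144 h, 70 and 1467 for 350.4 h, 1 and 108 for 556.8 h, and 1 and 77 for 763.2 h. Groups of under 20 cells are given as values with no ratio. Between 0.131% and 22.2% of a library's kept cells stayed unnamed, with the highest shares at 144 h and 0 h (16.2%). The unnamed cells at 144 h included 1082 shallow cells of a cluster led by Defb36, which also leads Sertoli-like cluster 27. That unnamed cluster scored highest for Sertoli (2.24, next class 0.0653), with 12 Sertoli markers. Its cells count among all other kept cells in the comparisons below.

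The Leydig name was given from 10 markers, so their levels here describe the class and are not a separate check. Of these, 10 of 10 had UMIs in Leydig-like cells at 144 h, with a summed level of 8195 CPM (counts scaled to the summed UMIs of the class), and 8 of 10 at 0 h, with 5512 CPM. Those at 20 CPM or more numbered 7 of 10 at 144 h and 6 of 10 at 0 h. Klk1b21 and Klk1b27, kallikreins of adult Leydig cells, had no UMI in Leydig-like cells at 0 h. Insl3, a hormone of Leydig cells, stood at 728, 181, 1097 and 3032 CPM in the 0, 144, 350.4 and 763.2 h Leydig-like cells, and at 3.11, 0.210, 0.0870 and 0.0546 CPM in all other kept cells of the same libraries. Among the 10 leading genes of the Leydig-like cluster were 6 of the 10 steroid synthesis genes, none of which had been used to cluster or name it. Of 8 macrophage markers, none reached 20 CPM in Leydig-like cells at any time. Stromal markers did appear there, at a summed 1395 CPM with 6 of 8 at 20 CPM or more at 144 h, and 1197 CPM with 7 of 8 at 0 h. Sertoli markers appeared as well: they summed to 2092 CPM in Leydig-like cells and 24490 CPM in Sertoli-like cells at 144 h, and to 2751 and 16437 CPM in the same 2 classes at 0 h.

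**Figure D1:**
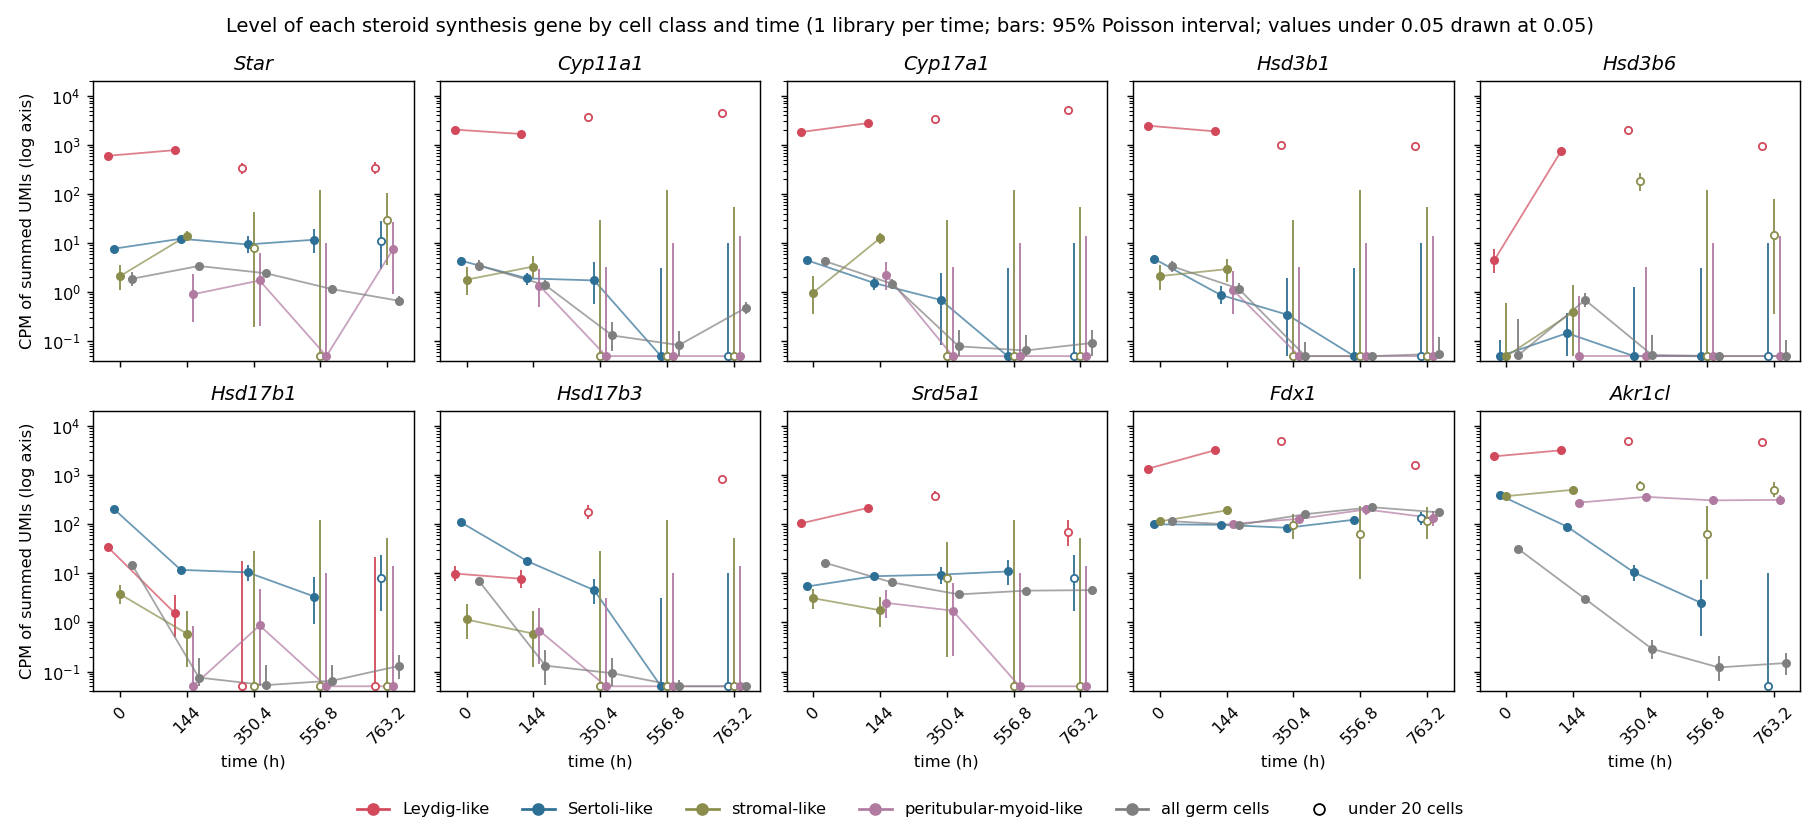
Level of each of the 10 genes (CPM of summed UMIs, log axis) at the 5 times in Leydig-like, Sertoli-like, stromal-like and peritubular-myoid-like cells and in all germ cells, with 95% Poisson intervals. Open points rest on under 20 cells. Star, Cyp11a1, Cyp17a1 and both Hsd3b genes sit far above the other classes in Leydig-like cells, Hsd17b1 is highest in Sertoli-like cells at 0 h, Hsd17b3 is high in Sertoli-like cells at 0 h and in Leydig-like cells at 763.2 h, and Hsd3b6 in Leydig-like cells stands at 748 CPM at 144 h against 4.50 CPM at 0 h.

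The first question was which cells carry each gene. In the comparison of Leydig-like cells with all other kept cells, 8 of 10 members were at least 2-fold higher and 1 at least 2-fold lower in Leydig-like cells at 144 h. Of the 15012 genes compared at 144 h, 11.1% were at least 2-fold higher and 38.0% at least 2-fold lower. At 0 h, 7 of 9 members compared were higher and 2 lower, where 6.92% of 14351 genes were higher and 20.7% lower. A gene was compared where both sides together held at least 50 UMIs. The share of high members was thus several times the background at both times. The members were chosen as steroid synthesis genes with earlier results of these data known, so this share is a description. At 144 h the exceptions were Hsd17b1, with a ratio of 0.413 (0.133 to 0.973), and Hsd17b3, which at 1.41 (0.906 to 2.11) lay between the limits. With a mitochondrial limit of 10%, which left 92 Sertoli-like cells at 144 h, the ratio of Hsd17b3 was 7.54 (4.26 to 12.9).

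The same comparison for Sertoli-like cells picked out other members. At 144 h 2 of them, Hsd17b1 and Hsd17b3, were at least 2-fold higher in Sertoli-like cells than in all other kept cells, and 7 were at least 2-fold lower, against 16.7% and 41.8% of all genes compared. At 0 h, 2 of 9 members were higher and 6 lower, against 12.7% and 26.7% of all genes. The 2 higher members were again Hsd17b1 and Hsd17b3. Their ratios at 0 h were 12.2 and 15, and over 9 alternatives they ranged from 5.43 to 19.4 for Hsd17b1 and from 6.02 to 23.7 for Hsd17b3. Both moved by over 1.5 times in 5 of the 9: with the wider cell filter, cells of at least 5000 UMIs, no doublet removal, members kept for clustering and the mean of the cells' own CPM. At 144 h the ratios were 19.9 for Hsd17b1, with a range of 3.80 to 49.8, and 19.0 for Hsd17b3, with a range of 6.87 to 26.0. The other kept cells include the Leydig-like cells, whose levels set these ratios for the Leydig genes. At 144 h the other kept cells also include the 1082 unnamed cells whose cluster scored highest for Sertoli. Against germ cells alone, the Sertoli-like level of Star was higher at 144 h (ratio 3.59, 2.99 to 4.32) and at 0 h (4.10, 2.89 to 5.98).

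**Figure D2:**
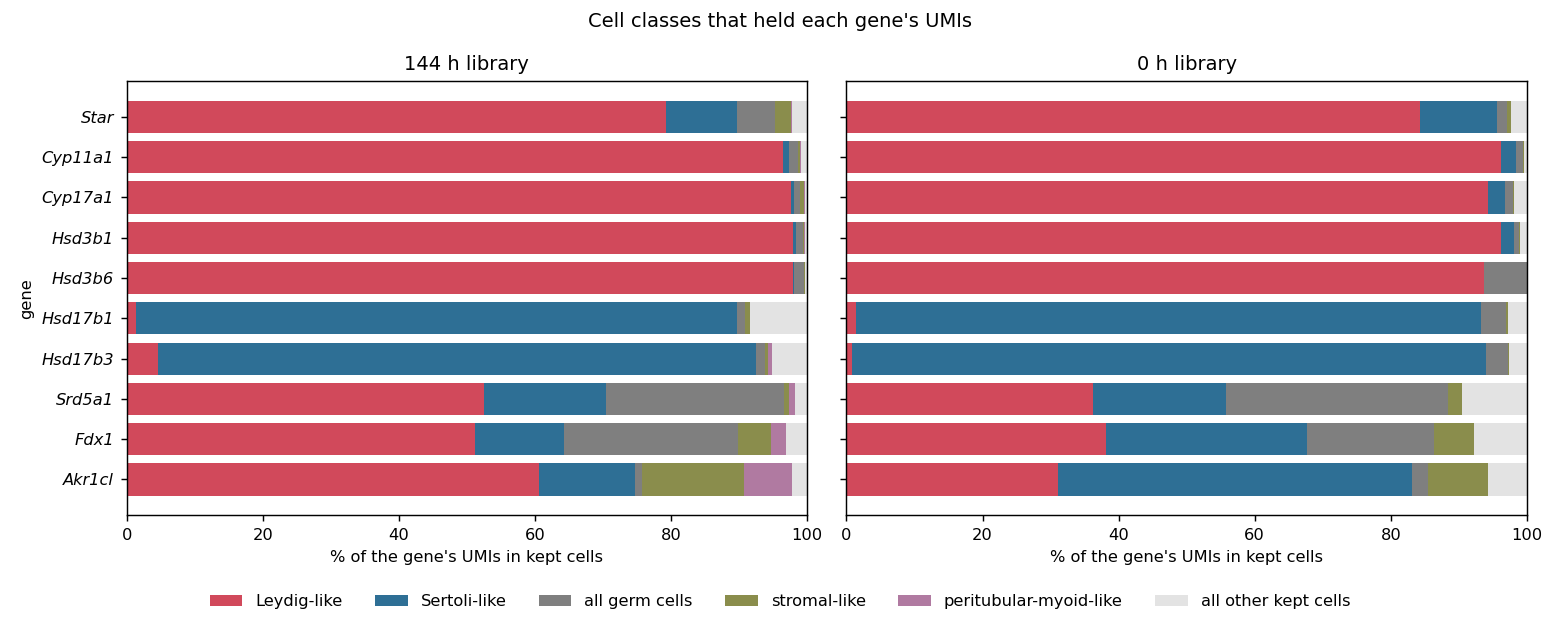
Share of each gene's UMIs in kept cells held by each cell class, at 144 h (left) and 0 h (right). Leydig-like cells held 97.9% of Hsd3b6 UMIs at 144 h, and Sertoli-like cells held 88.4% of Hsd17b1 UMIs at 144 h and 91.7% at 0 h.

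Star (GRCm38, chr8:25806555-25815982, plus strand) encodes the protein that delivers cholesterol to the inner mitochondrial membrane. In Leydig-like cells it stood at 601 CPM at 0 h (575 to 628), 783 CPM at 144 h (752 to 814), 335 CPM at 350.4 h (261 to 424, 7 cells) and 339 CPM at 763.2 h (258 to 439, 8 cells). The levels at 0 and 144 h were the 2 highest, and the intervals of the 2 late groups overlapped. Between 144 h and 0 h the ratio was 1.30 (1.23 to 1.38). Sertoli-like cells had 7.71, 12.3, 9.40, 11.7 and 10.9 CPM at the 5 times, while all germ cells had 1.88, 3.42, 2.44, 1.15 and 0.669 CPM. Star in Sertoli-like cells thus lay above the germ cells of each library, with intervals that did not overlap. At 0 h, however, red-blood-cell-like barcodes had 17.2 CPM of Star (11.2 to 25.4). Stromal-like, macrophage-like, endothelial-like and unnamed cells there had 2.13 to 3.68 CPM. At 144 h stromal-like cells had 14.2 CPM (11.1 to 17.8), overlapping the Sertoli-like interval, and unnamed cells 18.7 CPM. Peritubular-myoid-like cells there had 0.908 CPM, and endothelial-like and macrophage-like cells had no Star UMI. The part of free RNA in these Star levels was not tested. After thinning every cell to 1000 UMIs, 1.34% of 1271 Sertoli-like cells had a Star UMI at 144 h and 0.460% of 2609 germ cells did. Without thinning these shares were 18.6% and 6.29%, at median depths of 20115 and 15086 UMIs.

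Cyp11a1, the side-chain cleavage enzyme that makes pregnenolone, lies on chromosome 9 (GRCm38, chr9:58006411-58027023, plus strand) and overlaps the gene model Gm17322 on the same strand. It stood in Leydig-like cells at 2052 CPM at 0 h (2003 to 2101), 1669.5 CPM at 144 h (1625 to 1715), 3631 CPM at 350.4 h and 4366 CPM at 763.2 h. The ratio of 144 h over 0 h was 0.814 (0.785 to 0.843), which is between the 2-fold limits. Leydig-like cells held 96.4% of its UMIs at 144 h and 96.3% at 0 h. In Sertoli-like cells it was at 1.91 CPM at 144 h and 4.42 CPM at 0 h, and in germ cells at 1.39 CPM at 144 h and 3.50 CPM at 0 h, so the 2 classes were close to each other at both times.

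Fdx1 (adrenodoxin), the iron-sulfur protein that hands electrons to Cyp11a1 and to other mitochondrial P450 enzymes, lies at chr9:51943306-51963556 (minus strand). It was measured at 28.4 CPM or more in every class and library with at least 20 cells. In Leydig-like cells it stood at 1342 CPM at 0 h, 3190.3 CPM at 144 h, 4833 CPM at 350.4 h and 1586 CPM at 763.2 h. The ratio of 144 h over 0 h was 2.38 (2.29 to 2.46). Sertoli-like cells had 99.4, 97.2, 84.6, 123 and 131 CPM over the 5 times, and their ratio of 144 h over 0 h was 0.978 (0.930 to 1.03), an interval that includes 1. Among germ cells Fdx1 differed by stage. At 556.8 h it stood at 283 CPM in spermatocytes of the pachytene stage or later, 172 CPM in early meiotic spermatocytes, 171 CPM in round spermatids and 56.6 CPM in elongating spermatids. At 763.2 h the same 4 groups had 260.3, 139, 146 and 29.6 CPM. Elongating over round spermatids gave a ratio of 0.331 (0.300 to 0.365) at 556.8 h and 0.203 (0.182 to 0.225) at 763.2 h. Of these 4 groups, pachytene or later cells were highest and elongating spermatids lowest in both libraries, while early meiotic cells and round spermatids lay close together.

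Cyp17a1 (chr19:46667165-46673172, minus strand), which has the hydroxylase and lyase activities that lead to androgens, stood in Leydig-like cells at 1830.1 CPM at 0 h (1784 to 1877), 2785 CPM at 144 h (2728 to 2843), 3449 CPM at 350.4 h and 5262 CPM at 763.2 h. No 2 intervals of these times overlapped, but they cover counting error only. Single cells ranged from 121 to 5036 CPM at 350.4 h (7 cells) and from 235 to 7229 CPM at 763.2 h (8 cells). The ratio of 144 h over 0 h was 1.52 (1.47 to 1.57). Leydig-like cells held 97.6% of the UMIs at 144 h and 94.3% at 0 h. In Sertoli-like cells Cyp17a1 was at 1.55 CPM at 144 h and 4.47 CPM at 0 h, close to the germ cells of the same libraries at 1.49 and 4.29 CPM. Stromal-like cells had 12.6 CPM at 144 h (64 UMIs) and 0.983 CPM at 0 h (6 UMIs), a ratio of 12.8 (5.57 to 36.2). The UMIs came from 14 of 426 cells at 144 h and from 6 of 532 cells at 0 h. Stromal-like cells also sat in different clusters at these times: cluster 33 held 392 of them at 144 h and 10 at 0 h, and cluster 23 held 34 and 522. Star in stromal-like cells was likewise at 14.2 CPM at 144 h and 2.13 CPM at 0 h. Insl3, the marker hormone of Leydig cells, differed in the other direction in these stromal-like cells, with 3.15 CPM at 144 h and 7.21 CPM at 0 h.

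Hsd3b1 and Hsd3b6 encode 2 forms of 3-beta-hydroxysteroid dehydrogenase, which converts pregnenolone to progesterone and dehydroepiandrosterone to androstenedione. They are neighbouring copies on the minus strand of chromosome 3 (GRCm38, Hsd3b6 at chr3:98805504-98814443 and Hsd3b1 at chr3:98852194-98859794). The 250 bases in front of each start site are shown because the levels of these copies in Leydig-like cells differed in opposite directions between 144 h and 0 h. Both are from RefSeq, build GRCm38.p6, chromosome 3, minus strand, chr3:98814444-98814693 for Hsd3b6 and chr3:98859795-98860044 for Hsd3b1. Capitals mark the letters AGATAA or their reverse complement, a sequence that GATA factors can bind.
Hsd3b6: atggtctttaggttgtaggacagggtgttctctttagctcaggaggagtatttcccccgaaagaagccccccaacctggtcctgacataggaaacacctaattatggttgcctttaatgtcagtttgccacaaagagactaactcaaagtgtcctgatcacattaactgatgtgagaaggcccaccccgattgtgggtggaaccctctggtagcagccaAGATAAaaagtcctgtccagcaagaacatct
Hsd3b1: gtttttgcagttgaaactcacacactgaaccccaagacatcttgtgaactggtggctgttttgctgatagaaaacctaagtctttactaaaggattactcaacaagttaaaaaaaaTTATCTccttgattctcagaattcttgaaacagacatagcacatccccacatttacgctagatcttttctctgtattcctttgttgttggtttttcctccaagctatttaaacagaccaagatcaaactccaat

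The copies' upstream windows matched at 55.8% of 226 aligned bases. AGATAA lies on the gene's own strand in Hsd3b6 and on the opposite strand in Hsd3b1. On either strand it was found in 3 of the 8 member windows in the table, the third being Akr1cl, and in 9.99% of all 32851 windows of this length. AAGGTCA, the letters bound by the steroidogenic factor Nr5a1, was in none of the 8 member windows and in 4.08% of all windows, and TATAAA was in none of the 8 and in 12.4% of all. These matches describe letters only. The 8 windows belong to Akr1cl, Cyp11a1 (2 windows), Fdx1, Hsd17b3, Hsd3b1, Hsd3b6 and Srd5a1. No window was read for Star, Cyp17a1 and Hsd17b1. Since the transcripts of the copies are alike, reads could in principle be divided between them. Of the 50-base windows in the last 500 bases of the Hsd3b6 transcript, 0 of 451 were found in Hsd3b1 transcripts, and 158 of 451 (35.0%) were found in another gene of the family. For Hsd3b1, 0 of 451 were found in any other member of the family.

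Hsd3b1 stood in Leydig-like cells at 2463 CPM at 0 h (2410.2 to 2517), 1891 CPM at 144 h (1844 to 1939), 1001 CPM at 350.4 h (870 to 1146) and 959.9 CPM at 763.2 h (819 to 1119). Each of the first 2 levels lay above the one after it, and the 2 late groups overlapped. Hsd3b6 stood at 4.50 CPM at 0 h (2.52 to 7.42, 15 UMIs), 748 CPM at 144 h (719 to 779, 2419 UMIs), 2045 CPM at 350.4 h (1856 to 2249) and 936 CPM at 763.2 h (797 to 1093). No interval of the later times came near that of 0 h. The ratio of 144 h over 0 h was 166 (101 to 298) for Hsd3b6 and 0.768 (0.743 to 0.794) for Hsd3b1. The 15 UMIs of Hsd3b6 at 0 h came from 3 of 341 cells, and 1 cell held 11 of them. The intervals do not cover that unevenness between cells. At 144 h, Leydig-like cells held 97.9% of the UMIs of both genes in kept cells. The 10 stromal-like cells at 350.4 h also had 23 UMIs of Hsd3b6 (181 CPM) and 7 of Insl3. In Sertoli-like cells Hsd3b6 had 4 UMIs at 144 h and 0 at 0 h, where 0 of 34876105 UMIs allows up to 0.0860 CPM.

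Single Leydig-like cells differed in the 2 copies. Of the cells with at least 10000 UMIs, thinned to 10000 each, 57 of 129 had Hsd3b6 at 144 h (44.2%, exact binomial 35.5 to 53.2%) and 3 of 81 at 0 h (3.70%, 0.770 to 10.4%). Hsd3b1 was found in 77.5% of these cells at 144 h and in 76.5% at 0 h. At 144 h, 49 cells had both copies, 51 only Hsd3b1, 8 only Hsd3b6 and 21 neither. The 57 cells with Hsd3b6 had a median of 18 UMIs of it and up to 60. The unthinned median depth of Leydig-like cells was 20248 UMIs at 144 h and 5507 at 0 h, and 30 shallower cells at 144 h and 260 at 0 h took no part.

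**Figure D3:**
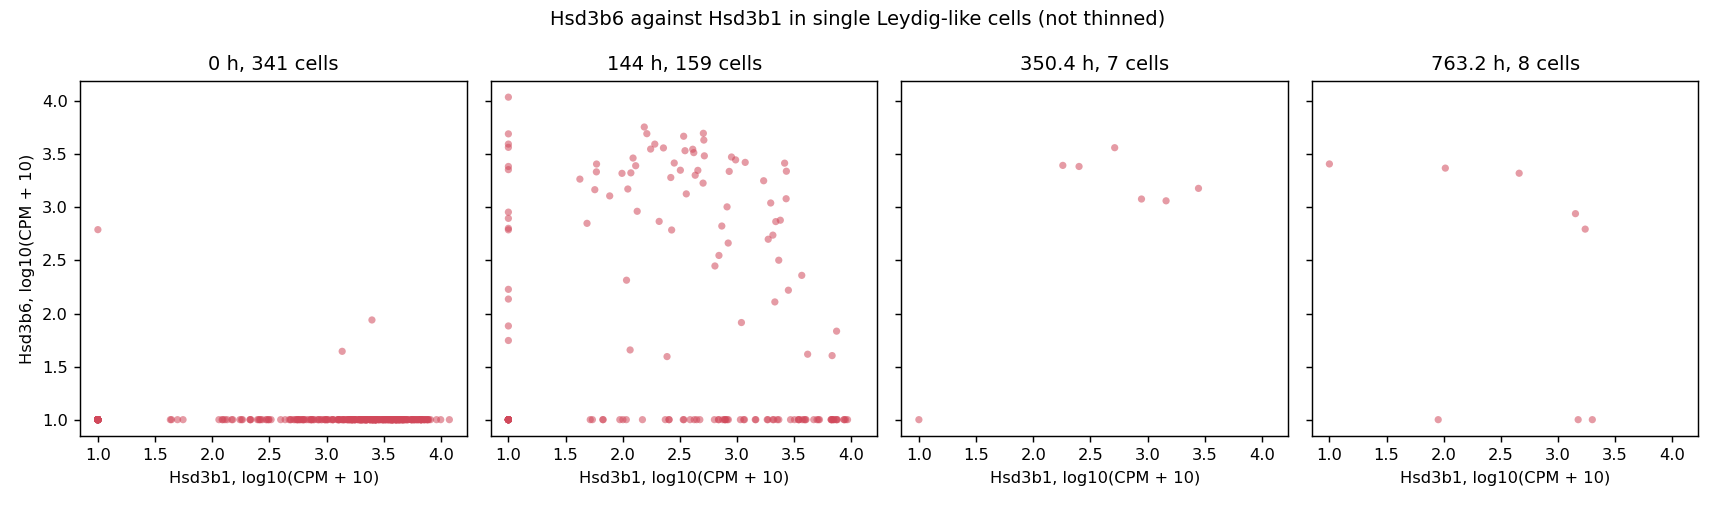
Level of Hsd3b6 against Hsd3b1 in single Leydig-like cells at the 4 times that had them, as log10 of CPM plus 10, with 1 point per cell and no thinning. At 0 h nearly all cells lie on the zero line of Hsd3b6 over a wide range of Hsd3b1, and at 144 h a second cloud of cells lies above it.

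The 57 deep Leydig-like cells with Hsd3b6 and the 72 without it at 144 h were set side by side over their other genes, as a description. Summed Hsd3b1 was 918 CPM in the cells with Hsd3b6 and 2668 CPM in those without it, a ratio of 0.344 (0.323 to 0.366). Cyp11a1 stood at 1189 and 2025 CPM (ratio 0.587, 0.553 to 0.623), and Akr1cl at 2729 and 3549 CPM (ratio 0.769). Star (ratio 1.12), Cyp17a1 (0.835), Fdx1 (0.933) and Srd5a1 (1.25) differed by less. Of 10 Leydig markers, 3 had ratios with intervals above 1, namely Insl3 (199 and 166 CPM, ratio 1.20), Prlr (1.12) and Klk1b24, a kallikrein of adult Leydig cells (28.0 and 14.8 CPM, ratio 1.89, 1.12 to 3.25). Fabp3 (0.639, 0.598 to 0.683) and Acsbg1 (0.839, 0.793 to 0.888) had intervals below 1, and those of the other 5 included 1. Of 12 Sertoli markers, Aard (1.56, 1.32 to 1.86) and Amhr2 (1.24) had intervals above 1, Sox9 (0.370, 0.146 to 0.833), Gstm6 (0.677) and Clu (0.918) had intervals below 1, and those of the other 7 included 1. Col1a1, a collagen that serves here as a stromal marker, was at 36.8 and 157 CPM (ratio 0.234, 0.169 to 0.317). Of the other 7 stromal markers Lum had no UMI and 6 had ratios of 0.566 to 1.14. Among these 6, Dcn (0.798, 0.720 to 0.884), Col1a2 (0.756, 0.682 to 0.836) and Gsn (0.668, 0.486 to 0.911) had intervals below 1. The intervals of Pdgfra, Igf1 and Tcf21 included 1. The cells share 1 library, and being counted with Hsd3b6 depends on its own UMIs.

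The last steps to active androgens and oestrogens belong to the 17-beta-hydroxysteroid dehydrogenases. Hsd17b1 (chr11:101078411-101080527, plus strand) stood in Sertoli-like cells at 202 CPM at 0 h (198 to 207), 11.7 CPM at 144 h (10.5 to 13.1), 10.4 CPM at 350.4 h (7.05 to 14.9), 3.36 CPM at 556.8 h (0.914 to 8.59, 4 UMIs) and 8.20 CPM at 763.2 h (3 UMIs in 16 cells). The level at 0 h was far above every later one, and from 144 h on the intervals of neighbouring times overlapped. The ratio was 0.0580 (0.0517 to 0.0649) for 144 h over 0 h and 0.890 (0.591 to 1.30) for 350.4 h over 144 h. With all cells thinned to 1000 UMIs, 0.629% of Sertoli-like cells had a Hsd17b1 UMI at 144 h and 17.7% at 0 h, against 0.0383% and 3.66% of germ cells. The unthinned shares were 17.5% at 144 h and 58.6% at 0 h in Sertoli-like cells, at median depths of 20115 and 4830 UMIs, and 0.153% and 12.5% in germ cells, at 15086 and 4299 UMIs.

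Hsd17b3 (chr13:64058266-64089230, minus strand), the enzyme that makes testosterone, had 110.0 CPM in Sertoli-like cells at 0 h (107 to 113), 17.6 CPM at 144 h (16.1 to 19.3), 4.53 CPM at 350.4 h (2.41 to 7.74) and no UMI in the 48 cells at 556.8 h, which allows up to 2.52 CPM. The levels at 144 and 350.4 h each lay below the time before with no overlap. The ratios were 0.160 (0.145 to 0.176) for 144 h over 0 h and 0.257 (0.136 to 0.443) for 350.4 h over 144 h. In Leydig-like cells the same gene was at 9.90 CPM at 0 h (6.81 to 13.9), 7.73 CPM at 144 h (5.005 to 11.4), 177 CPM at 350.4 h (125 to 244) and 825 CPM at 763.2 h (695 to 973). The first 2 intervals overlapped, and the 2 late ones lay above them and apart from each other, by counting error only. Single cells ranged from 0 to 782 CPM at 350.4 h (7 cells) and from 149 to 1405 CPM at 763.2 h (8 cells). Leydig-like cells held 0.802%, 4.59%, 64.9% and 99.3% of the Hsd17b3 UMIs at 0, 144, 350.4 and 763.2 h, while Sertoli-like cells held 93.2%, 87.9%, 22.8% and 0%.

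Low levels of the Sertoli genes in other classes of the 0 h library were read against Amh, the anti-Müllerian hormone of Sertoli cells. Hsd17b1 in Leydig-like cells at 0 h (33.9 CPM) was 16.8% of the Sertoli-like level (13.8 to 20.2%), Hsd17b3 was 9.00% (6.19 to 12.7%) and Amh 12.6% (10.8 to 14.7%). The other classes differed widely in the same 3 genes. In the order Hsd17b1, Hsd17b3 and Amh, red-blood-cell-like barcodes had 36.8%, 30.1% and 53.0%, macrophage-like cells 12.3%, 19.0% and 17.3%, endothelial-like cells 8.91%, 13.7% and 21.3%, germ cells 7.41%, 6.46% and 7.35%, and stromal-like cells 1.86%, 1.04% and 1.12%. The Leydig-like values thus lay between those of stromal-like cells and red-blood-cell-like barcodes. Within Leydig-like cells the intervals of Hsd17b1 and Hsd17b3 did not overlap. The part of free RNA in these low levels was not tested. For Hsd17b1 in Leydig-like cells, 144 h over 0 h gave a ratio of 0.0456 (0.0145 to 0.110), and Amh in the same cells was at 0.619 CPM at 144 h and 51.6 CPM at 0 h. At 144 h Leydig-like over Sertoli-like cells gave a ratio of 0.439 (0.281 to 0.656) for Hsd17b3, 0.132 (0.0425 to 0.311) for Hsd17b1 and 0.0122 (0.00148 to 0.0442) for Amh. The intervals of Hsd17b3 and Hsd17b1 overlapped, and that of Amh lay below that of Hsd17b3.

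**Figure D4:**
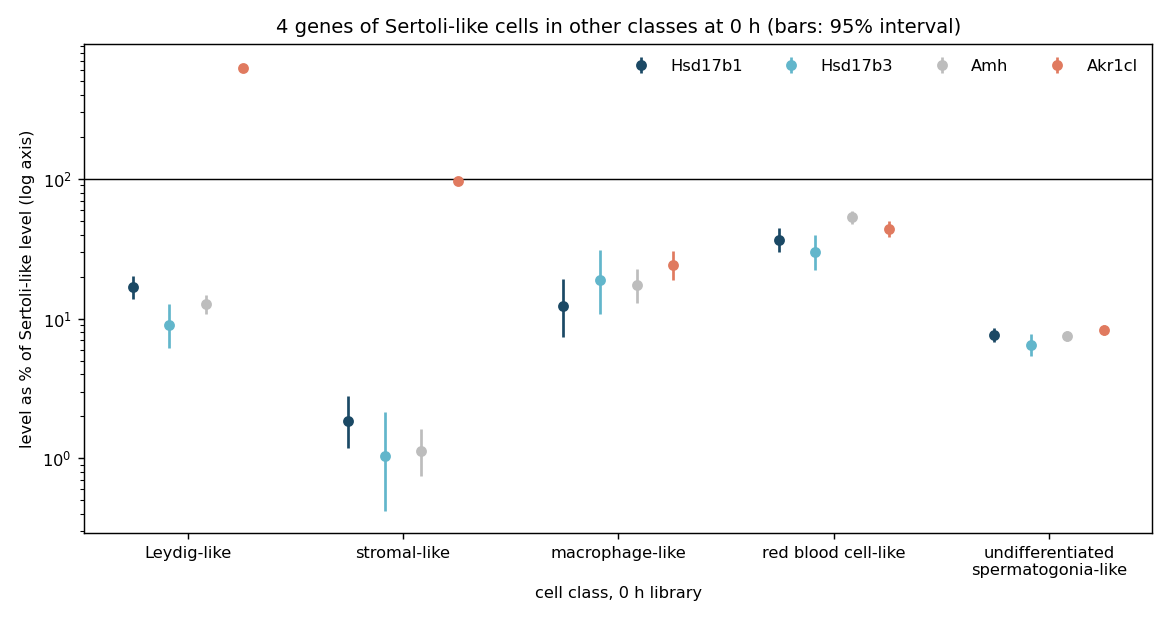
Levels of Hsd17b1, Hsd17b3, Akr1cl and the Sertoli hormone gene Amh in 5 other classes of the 0 h library, as a percentage of the Sertoli-like level (log axis, 95% intervals, line at 100). Hsd17b1, Hsd17b3 and Amh lie lowest in stromal-like cells, at 1.04% to 1.86%, and highest in red-blood-cell-like barcodes, at 30.1% to 53.0%, whereas Akr1cl reaches 625% in Leydig-like and 96.8% in stromal-like cells.

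Sertoli-like cells of different times fell into different clusters. At 0 h they were clusters 3 (1597 cells), 10 (987), 37 (363, led by histone genes) and 53 (164), at 144 h clusters 14 (774) and 27 (483), and at 350.4 h cluster 30 (462 shallow cells, median 1332 UMIs) and cluster 55 (59 deep cells). Hsd17b1 ranged from 161 to 226 CPM over the 4 clusters at 0 h, and Hsd17b3 from 59.3 to 128 CPM. At 144 h the 2 clusters differed: cluster 27 had 4.50 CPM of Hsd17b1 (3.36 to 5.90) and 24.9 CPM of Hsd17b3 (22.1 to 28.0), whereas cluster 14 had 17.2 CPM (15.2 to 19.4) and 12.3 CPM (10.6 to 14.2). The 2 enzymes were thus unequal in opposite directions between these groups of cells. At 350.4 h Hsd17b1 was at 12.7 CPM in the deep cluster 55 (8.23 to 18.8, 25 UMIs) and at 5.32 CPM in cluster 30 (1.45 to 13.6, 4 UMIs). Hsd17b3 was at 5.08 CPM (2.44 to 9.35, 10 UMIs) and 2.66 CPM (0.322 to 9.62, 2 UMIs) in the same 2 clusters, so the intervals overlapped for both genes.

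Srd5a1, a steroid 5-alpha-reductase, stood in Leydig-like cells at 104 CPM at 0 h (93.4 to 116), 215 CPM at 144 h (199 to 231), 383 CPM at 350.4 h (304 to 477) and 70.2 CPM at 763.2 h (36.3 to 123, 12 UMIs). The ratio of 144 h over 0 h was 2.06 (1.81 to 2.35), so its interval reached below 2. The call depended on the processing: the ratio lay between 1.81 and 2.45 over 8 alternatives and reached 2 in 5 of them. The level at 763.2 h overlapped that of 0 h. Srd5a1 (chr13:69573449-69611442, minus strand) overlaps Nsun2 on the opposite strand, and whether counting used strand is not given in the sources used here, so its values may include Nsun2 reads. Outside Leydig-like cells the highest level among groups with at least 20 UMIs was in undifferentiated-spermatogonia-like cells, with 13.3 CPM at 144 h and 16.2 CPM at 0 h, against 8.72 and 5.39 CPM in Sertoli-like cells. The ratio of these spermatogonia over Sertoli-like cells was 1.52 (1.23 to 1.88) at 144 h and 3.01 (2.50 to 3.63) at 0 h. At 763.2 h elongating spermatids had 0.685 CPM and round spermatids 6.41 CPM, a ratio of 0.107 (0.0480 to 0.208).

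Akr1cl (chr1:65012689-65032759, minus strand, with the gene model Gm8550 on the opposite strand) reached its highest levels in 4 somatic classes, among groups with at least 20 cells. Lower levels at 0 h were 170 CPM in red-blood-cell-like barcodes, 154 CPM in unnamed, 92.8 CPM in macrophage-like and 84.1 CPM in endothelial-like cells. The part of free RNA in these lower levels of Akr1cl was not tested. In Leydig-like cells Akr1cl stood at 2406 CPM at 0 h, 3196 CPM at 144 h, 4876 CPM at 350.4 h and 4647 CPM at 763.2 h. The 2 late intervals (4581 to 5185 and 4330 to 4982) overlapped. Stromal-like cells had 373 CPM at 0 h, 502 CPM at 144 h, 598 CPM at 350.4 h (10 cells), 64.5 CPM at 556.8 h (2 UMIs in 4 cells) and 508 CPM at 763.2 h (12 cells). Peritubular-myoid-like cells, which wrap the tubule and contract, had 276, 361, 305 and 313 CPM at 144, 350.4, 556.8 and 763.2 h. No cell at 0 h bore that name. However, 258 unnamed cells at 0 h lay in cluster 48, which scored highest for peritubular myoid (2.02, stromal 1.60). Sertoli-like cells had 385 CPM at 0 h (379 to 392), 89.2 CPM at 144 h (85.7 to 92.8), 10.4 CPM at 350.4 h (7.05 to 14.9), 2.52 CPM at 556.8 h (3 UMIs) and 0 UMIs at 763.2 h, which allows up to 8.20 CPM. In Sertoli-like cells the intervals of 144 and 350.4 h each lay below the time before. In Leydig-like cells no later interval reached down to that of 0 h.

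Between 144 h and 0 h Akr1cl gave ratios of 1.33 (1.29 to 1.37) in Leydig-like, 1.35 (1.27 to 1.43) in stromal-like and 0.232 (0.222 to 0.242) in Sertoli-like cells. The Sertoli-like and most of the stromal-like cells of the 2 times belong to different clusters, as given above. For 350.4 h over 144 h the Sertoli-like ratio was 0.117 (0.0788 to 0.168). Stromal markers moved with this in Sertoli-like cells: their 8 genes summed to 24.3 CPM at 144 h, with 0 of 8 at 20 CPM or more, and to 497 CPM at 0 h, with 6 of 8. Their part in the Sertoli-like difference was not tested. At 0 h the stromal-like level of Akr1cl was 96.8% (92.6 to 101%) of the Sertoli-like one, and the Sertoli-like level was 15.6 to 16.5% of the Leydig-like one by its interval, where that share was 0.215% for Cyp11a1.

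The second question was what differed between 144 h and 0 h within a class. In Leydig-like cells, 3 of 10 members (Hsd3b6, Fdx1 and Srd5a1) were at least 2-fold higher at 144 h, where 4.27% of 8802 genes compared were. Hsd17b1 (1.55 CPM at 144 h and 33.9 CPM at 0 h) was the 1 member at least 2-fold lower, where 7.48% of genes were. The members' median log2 ratio was 0.40, against -0.08 over all genes. The other 6 lay between, with Star, Cyp17a1 and Akr1cl at 1.30 to 1.52 and Cyp11a1, Hsd3b1 and Hsd17b3 at 0.768 to 0.814. In Sertoli-like cells 0 of 9 members compared were at least 2-fold higher, where 10.6% of 12570 genes were, and 6 were at least 2-fold lower, where 18.8% were. The median log2 ratio of the 9 was -1.53, against -0.08 over all genes. The median mitochondrial share of Sertoli-like cells also differed, at 15% at 144 h and 4.82% at 0 h. Among cells under 10% mitochondrial, 92 at 144 h and 2884 at 0 h, the ratios were 0.0404 for Hsd17b1, 0.163 for Hsd17b3 and 0.311 for Akr1cl.

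Of these 6, Hsd17b1, Hsd17b3 and Akr1cl had high Sertoli-like levels at 0 h. The other 3 were Cyp11a1 (0.433), Cyp17a1 (0.345) and Hsd3b1 (0.182), whose Sertoli-like levels at 0 h (4.42, 4.47 and 4.85 CPM) were 0.215%, 0.244% and 0.197% of the Leydig-like ones. Insl3, which Sertoli cells should lack, was at 0.331% there. In the order Cyp11a1, Cyp17a1 and Hsd3b1, germ cells of the 0 h library had 3.50, 4.29 and 3.40 CPM, stromal-like cells 1.80, 0.983 and 2.13 CPM, and red-blood-cell-like barcodes 1.38, 30.3 and 31.0 CPM. Among the Sertoli-like clusters at 0 h, Cyp17a1 ranged from 0.360 CPM in cluster 37 to 32.5 CPM in cluster 53, which held 63 of its 156 UMIs, Hsd3b1 from 2.61 to 23.2 CPM and Cyp11a1 from 2.16 to 17.5 CPM. Cluster 53 was the highest for all 3. Without doublet removal the ratio of Cyp17a1 turned to 1.72, and Cyp11a1 stayed under 0.5 in 3 of 9 alternatives. Star (1.59, 1.35 to 1.88), Srd5a1 (1.62, 1.33 to 1.97) and Fdx1 lay between the limits.

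**Figure D5:**
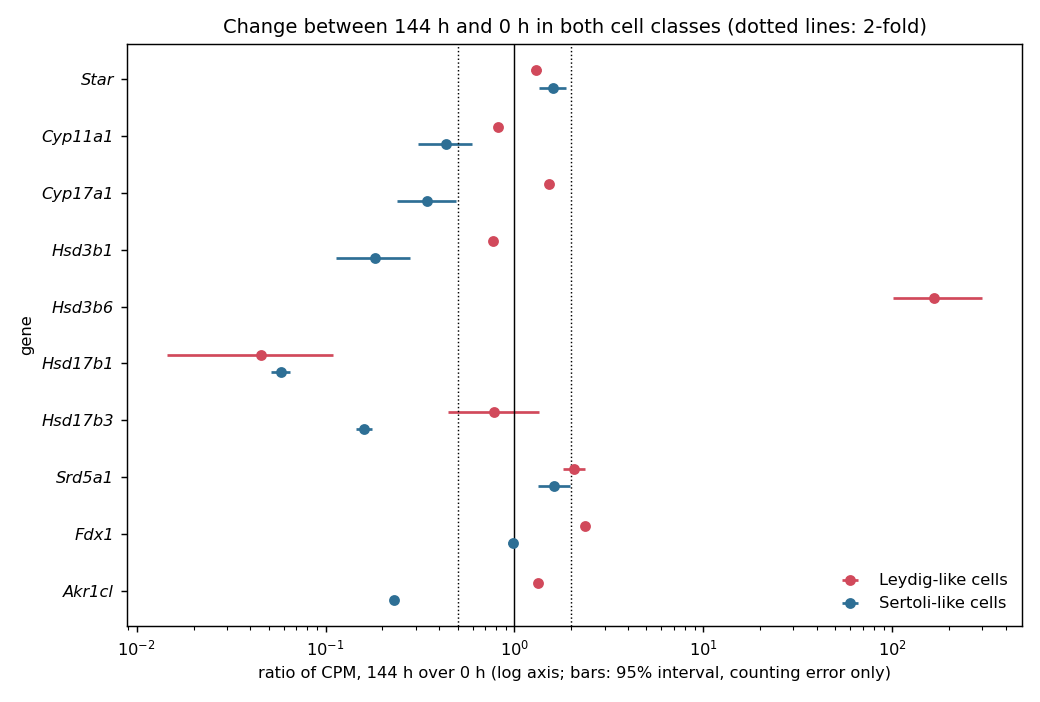
Ratio of the level at 144 h over 0 h for each gene in Leydig-like and Sertoli-like cells (log axis, 95% intervals, dotted lines at 2-fold). Hsd3b6 lies at 166 in Leydig-like cells, Hsd17b3 and Akr1cl lie at 0.160 and 0.232 in Sertoli-like cells, and Hsd3b6 in Sertoli-like cells had too few UMIs to be drawn.

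For the later steps only Sertoli-like cells were numerous enough. For 350.4 h over 144 h, 0 of 7 members compared were at least 2-fold higher, where 9.84% of 11171 genes were, and 2 (Hsd17b3 and Akr1cl) were at least 2-fold lower, where 8.81% were. For 556.8 h over 350.4 h only Fdx1 had enough UMIs, at a ratio of 1.46 (1.18 to 1.80), so 0 members were higher and 0 lower, where 10.4% and 4.41% of 8133 genes were.

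The few late Leydig-like cells were read 1 by 1. At 350.4 h, 6 of the 7 cells had between 31600 and 40788 UMIs and 1 had 1442. Each of the 6 deep cells had 38 to 115 UMIs of Hsd3b6 and 7 to 102 of Hsd3b1. Hsd17b3 was uneven among them: 35 of its 37 UMIs came from 2 cells, with 25 and 10. At 763.2 h, the 8 cells had 12754 to 41292 UMIs and all 8 had Hsd17b3, with 3 to 58 UMIs. Hsd3b6 was absent from 3 of the 8, which had 15428, 25144 and 41292 UMIs, and the other 5 had 10 to 50 UMIs of it. Hsd17b1 had no UMI in any of the 15 late cells.

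In the whole suspension these differences were mixed with the number of cells. Over all kept cells Hsd3b6 was at 0.218, 25.1, 5.63, 0 and 1.51 CPM at the 5 times, Hsd3b1 at 116, 63.5, 2.63, 0 and 1.56 CPM, and Cyp17a1 at 88.2, 93.8, 9.03, 0.0641 and 8.27 CPM. At 556.8 h, where no cell was Leydig-like, both Hsd3b genes had 0 UMIs among 109255121, which allows up to 0.0275 CPM. Hsd17b1 was at 105, 3.67, 0.434, 0.101 and 0.227 CPM and Fdx1 at 160.04, 205, 169, 219.8 and 176 CPM. In such sums fewer cells of a type and less RNA per cell cannot be told apart.

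Joint variation of the genes over single cells was described within the Leydig-like class. Over 139 cells of at least 5000 UMIs at 144 h, thinned to 5000, Spearman's rho was 0.60 between Cyp11a1 and Hsd3b1, 0.43 between Star and Cyp11a1 and 0.21 between Fdx1 and Cyp11a1. Over 188 such cells at 0 h the same pairs had 0.75, 0.70 and 0.64. Not every pair was lower at 144 h: Cyp11a1 and Srd5a1 had 0.25 at 144 h and 0.12 at 0 h, and Hsd3b1 and Srd5a1 had 0.33 and 0.32. The cells of each time share a library and a fixed depth, and these values are descriptions.

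Genes that feed or control the pathway were taken from 4 lists of 62 genes in all. For 144 h over 0 h in Leydig-like cells, the list counts stand beside 4.27% of all genes compared that were at least 2-fold higher and 7.48% at least 2-fold lower. There 1 of 13 compared cholesterol supply genes was at least 2-fold higher and 0 lower: Soat1, which esterifies cholesterol for storage, at 732 CPM at 144 h and 283 CPM at 0 h (ratio 2.59, 2.40 to 2.79). A count of 1 in 13 is near that share. The list's median log2 ratio was 0.39, against -0.08 over all genes compared. Among 6 electron donors, Por, the reductase that serves Cyp17a1, was higher (218 and 94.5 CPM, ratio 2.31, 2.02 to 2.64) and none was lower. The median was 0.28. Of 8 other steroid-converting enzymes 2 were higher, Akr1b7 (56.3 and 24.3 CPM) and Cyp21a1, the 21-hydroxylase (16.1 and 7.50 CPM), and none was lower, with a median of 0.42. Of 15 regulators 2 were higher, among them the cAMP-responsive factor Crem (145 and 44.1 CPM, ratio 3.29), and 2 were lower, Gata6 (7.42 and 46.2 CPM, ratio 0.161) and Cebpb (53.5 and 224 CPM, ratio 0.239).

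The same lists were counted in Leydig-like cells against all other kept cells, where 11.1% of all genes were at least 2-fold higher and 38.0% lower at 144 h, and 6.92% and 20.7% at 0 h. At 144 h, 6 of 14 cholesterol supply genes were at least 2-fold higher 1 (Acbd3) was lower and 7 lay between, with a median log2 ratio of 0.88 against -0.62 over all genes. At 0 h 5 of the 14 were higher, 0 lower and 9 between. At 144 h Abca1, a cholesterol exporter, had the highest ratio (439 CPM in Leydig-like and 34.7 CPM in other cells). The others that were higher at 144 h included Soat1 (732 and 127 CPM) and Scarb1, a receptor for high-density lipoprotein (327 and 80.9 CPM). Of 6 electron donors 4 were higher at 144 h, led by Fdxr, which reduces the Fdx1 protein (499 and 55.5 CPM, ratio 8.98, 8.49 to 9.50). At 0 h Fdxr was at 422 and 112 CPM in the same 2 groups, a ratio of 3.77. Of 12 other steroid-converting enzymes 7 were higher and 1 lower at 144 h, led by Cyp21a1 (ratio 80.5, 46.8 to 144) and Akr1b7 (ratio 38.8, 30.9 to 48.7). Of the regulators, 9 of 16 were higher and 3 lower at 144 h, and 7 of 16 higher and 1 lower at 0 h. The nuclear receptor Nr4a2 had the highest ratio of the regulators at both times (58.8 CPM in Leydig-like and 2.59 CPM in other cells at 144 h, 37.8 and 2.87 CPM at 0 h). Nr5a1, which switches on steroidogenic genes, was at 157 and 38.5 CPM at 0 h, a ratio of 4.08 (3.71 to 4.48).

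In Sertoli-like cells, 144 h over 0 h, the list counts stand beside 10.6% of all genes higher and 18.8% lower, and several lie near those shares. Scarb1 (188 and 43.4 CPM, ratio 4.33, 4.09 to 4.59), Soat1 (358 and 98.0 CPM, ratio 3.65) and the cholesterol transporter Stard3 (67.7 and 29.7 CPM, ratio 2.28) were the 3 of 14 cholesterol supply genes at least 2-fold higher, and 1 was lower. That list's median log2 ratio was 0.21. None of 6 electron donors passed 2-fold, with a median of 0.52. Of 11 other steroid-converting enzymes 1 (Akr1c13, 5.22 and 0.946 CPM) was higher and 4 lower, among them Akr1c14 (0.110 and 3.27 CPM) and Hsd11b2 (0.258 and 2.61 CPM), and their median was -0.29. Of 15 regulators, with a median of -0.20, Nr0b1, a repressor of Nr5a1, was higher (217 and 38.7 CPM, ratio 5.60, 5.28 to 5.95), and Nr2f2 (1.40 and 27.2 CPM), Nr4a1 and Cebpb were lower. Nr2f2 is also expressed by stromal cells, whose markers moved in Sertoli-like cells as given above.

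Patterns were last compared over 46 groups of a class and a library, each of at least 20 cells, by Pearson's correlation of log2(CPM + 1), among 9456 genes. The gene most like Hsd17b1 was Amh (r = 0.96), followed by the glutamate transporter Slc1a6 (0.91), and the same 2 genes led for Hsd17b3 (Slc1a6 0.92, Amh 0.91). Insl3 led for Cyp17a1 (0.91) and Hsd3b1 (0.94), and Serpina3g for Cyp11a1 (0.94) and Hsd3b6 (0.80). Akr1cl was most like C1ra (0.96), Pdpn (0.95) and Gpx8 (0.95). Star (Hao2, 0.79), Fdx1 (Alas1, 0.78, the first enzyme of haem synthesis) and Srd5a1 (Pla2g1b, 0.71) had less close matches. The groups share libraries, and germ cell groups with levels near 0 add to each correlation. Leydig-like cells entered only as the groups of 0 and 144 h, with 341 and 159 cells. In these, Insl3 was at 728 CPM at 0 h and 181 CPM at 144 h. The Leydig-like ratio of 144 h over 0 h was 1.52 for Cyp17a1 and 0.768 for Hsd3b1. Insl3 and Amh also served as markers to name the classes, so their matches are descriptions.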

How the data were processed

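The deposited values are raw UMI counts per gene and cell barcode in 5 libraries. Per the file headers, the software was Cell Ranger 3.0.2. The submitters' processing notes name the mm10 build and Seurat 4.3.0.1 without saying what each was used for. Use of strand in counting was not given in the sources used here, nor were aligner settings or the annotation. Deposited barcodes numbered 7441 to 11987 a library. Cells with at least 1000 UMIs, at least 500 genes, under 20% mitochondrial UMIs and a Scrublet score under 0.25 were kept. The automatic Scrublet threshold marked 340 cells in 1 library and at most 1 in the others, so the fixed limit was used, which removed 210 to 439 cells a library. Whether the authors removed doublets is not stated in the labels.

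Clustering used scanpy 1.11.5 with 3000 variable genes, from which mitochondrial genes, the 10 members and the 62 pathway list genes were left out, 40 principal components, 15 neighbours and Leiden clustering (python-igraph 0.11.9) at resolution 2. Clusters were named from marker lists where a class had a score of at least 0.75, a lead of 0.25 over the next class and at least 3 markers. In addition, no other class could have more markers among the cluster's 10 leading genes. A cluster with a median depth under its libraries' median divided by 3 also needed an own marker among these genes. Clusters that missed these limits were called germ cells without a stage where the best and next class were germ cell classes. They needed a score of at least 0.2, at least 3 markers and no somatic marker among the 10 leading genes. These limits were set with the data seen. UMIs were summed per class and library. Levels are CPM with exact Poisson intervals, ratios carry exact conditional binomial intervals (scipy 1.17.1), and shares of cells carry exact Clopper-Pearson intervals after thinning each cell to a fixed depth. A ratio was computed where both sides together held at least 50 UMIs, and was called at 2 or more or at 0.5 or less. A count of 0 allows up to 3 counts. With 1 library a time, no p-value was computed. Levels are not per length and are not compared between genes.

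All 10 members were put into every comparison, and those that passed a limit are counted but not all named. Genes of the 4 pathway lists are named where they passed 2-fold, up to 4 a list and direction by the interval bound nearest 1, and the genes of most similar pattern are the 3 with the highest correlation. The list gene Sts was not found under that symbol, and some list genes are counted but not reported here by name. The members and lists were chosen with earlier results of these data known. Analyses ran under Python 3.11.15. Alternatives changed the cell filter, doublet removal, resolution, variable genes, cell depth, cell weighting and UMI minimum.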

Additional observations from a re-analysis of the deposited data

Results flagged for a closer look

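Both results here were picked out because the ratio of 144 h over 0 h went one way in Leydig-like cells and the other way in Sertoli-like cells. For Cyp17a1 the ratio was 1.52 in Leydig-like cells and 0.345 in Sertoli-like cells, whose level was 1.55 CPM at 144 h and 4.47 CPM at 0 h, so that the Leydig-like ratio was 4.41 times the Sertoli-like one. For Akr1cl it was 1.33 in Leydig-like cells and 0.232 in Sertoli-like cells, 5.73 times apart. Without doublet removal the Sertoli-like ratio of Cyp17a1 was 1.72, in the same direction as in Leydig-like cells. The Sertoli-like level of Cyp17a1 at 0 h was 0.244% of the Leydig-like one and close to that of germ cells (4.29 CPM). With 1 library at each time, neither the Cyp17a1 nor the Akr1cl difference was tested.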

How the results depend on the processing

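Of 65 member ratios, 47 were called, and 41 of these kept their call under every alternative that gave a value. The other 6 lost it in some, and 1 changed side: without doublet removal the ratio of Cyp17a1 in Sertoli-like cells, 144 h over 0 h, was 1.72 in place of 0.345. Srd5a1 in Leydig-like cells, 144 h over 0 h, ranged from 1.81 to 2.45, and Cyp11a1 in Sertoli-like cells from 0.194 to 0.813. The ratio of Hsd3b6 in Leydig-like cells ranged from 141 to 428, and that of Hsd17b1 in Sertoli-like cells from 0.0404 to 0.0595. Of 16 counts of members, 6 moved by over 1.5 times. Members at least 2-fold lower in Sertoli-like cells, 350.4 h over 144 h, numbered 2, but 4 with cells of at least 500 UMIs and 250 genes and under 50% mitochondrial UMIs, 1 under 10% mitochondrial, 5 with the mean of the cells' own CPM and 4 with a minimum of 10 UMIs. For 556.8 h over 350.4 h they numbered 0, but 1 with the wider cell filter and 2 with a minimum of 10 UMIs. Under 10% mitochondrial, members lower in Leydig-like than in all other cells at 144 h were 0 in place of 1, and members higher in Sertoli-like than in all other cells at 144 h were 1 in place of 2. With the mean of the cells' own CPM, members lower in Leydig-like cells at 144 h over 0 h were 2 in place of 1, and members lower in Leydig-like than in all other cells at 0 h were 1 in place of 2. The cause of these shifts was not tested. The comparison of 556.8 h over 350.4 h could not be run under 10% mitochondrial, as too few Sertoli-like cells remained. Leaving out the shallowest 0 h Sertoli-like cluster was chosen after seeing the data. No paired analysis was possible because each time had 1 library and no test was run. Depth and cell number limit the later times most, with 7 and 8 Leydig-like cells at 350.4 and 763.2 h and 48 and 16 Sertoli-like cells at 556.8 and 763.2 h.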
